A study of Homo sapiens with 12 samples.

Results

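TNF superfamily ligands were followed through the transcriptional response of HL-60/S4 cells to TNF-α itself. The members are 9 genes chosen by name as ligands of the family (TNF, LTA, LTB, TNFSF8, TNFSF9, TNFSF10, TNFSF13B, TNFSF14 and TNFSF15), out of 58288 genes in the deposited table. HL-60/S4 is an established promyelocytic leukemia line, and all results come from this 1 line, cultured to passage 8. The sequencing covered 12 libraries, divided evenly over 4 groups of 3. Promyelocytes were the undifferentiated cells, and granulocytes were the same line after 4 days in 1 µM all-trans retinoic acid (ATRA). In each form, cells in medium with added calcium received either water as vehicle or TNF-α at 16 ng/mL, and RNA was taken after 2 h. Each form had an experiment of its own, so cell form and experiment cannot be told apart in any comparison of levels or responses between them.

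TNF superfamily ligands are mostly made as membrane proteins that act as trimers on receptors of the TNF receptor superfamily, and several, TNF first among them, are cut from the cell surface by proteases. Many of the receptors signal to NF-κB, and TNF is itself a classical NF-κB target gene, so that a cell exposed to TNF-α can make more of it. In myeloid cells the family includes inflammatory cytokines (TNF), death-inducing ligands (TNFSF10, known as TRAIL), B cell survival factors (TNFSF13B, known as BAFF) and costimulators of lymphocytes (TNFSF9, TNFSF14, TNFSF15).

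The members lie in a few clusters of the genome, given in hg38 coordinates of the counting table. LTA (chr6:31572054-31574324), TNF (chr6:31575567-31578336) and LTB (chr6:31580525-31582522, minus strand) sit side by side. TNFSF9 (chr19:6530999-6535928) and TNFSF14 (chr19:6661253-6670588, minus strand) flank another ligand gene, CD70. TNFSF15 (chr9:114784635-114806126) and TNFSF8 (chr9:114893343-114930595) are neighbours on the minus strand. TNFSF10 (chr3:172505508-172523507, minus strand) and TNFSF13B (chr13:108251240-108308484) stand apart from the rest. No member shares exon bases with another gene of its strand, so none lost read pairs to an overlapping gene of that strand.

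The 250 bases before the start site are shown for the 4 members whose response to TNF-α differed between promyelocytes and granulocytes. They come from RefSeq on GRCh38.p14, which held an entry for 8 of the 9 members, the exception being TNFSF8. Capitals mark a match, on either strand, to the 10-base NF-κB consensus or to the interferon-stimulated response element (10 bases).
TNF (chr6:31575315-31575564, plus strand): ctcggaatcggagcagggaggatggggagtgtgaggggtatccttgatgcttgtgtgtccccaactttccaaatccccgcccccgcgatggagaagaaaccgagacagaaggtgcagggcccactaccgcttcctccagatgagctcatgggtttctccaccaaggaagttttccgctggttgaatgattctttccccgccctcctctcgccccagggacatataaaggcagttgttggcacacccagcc
LTB (chr6:31582426-31582675, minus strand): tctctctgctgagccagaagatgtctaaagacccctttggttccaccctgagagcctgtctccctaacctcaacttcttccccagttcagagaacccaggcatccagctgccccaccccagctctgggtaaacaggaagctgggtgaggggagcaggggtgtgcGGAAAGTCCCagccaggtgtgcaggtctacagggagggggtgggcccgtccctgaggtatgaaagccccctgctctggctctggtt
TNFSF9 (chr19:6530776-6531025, plus strand): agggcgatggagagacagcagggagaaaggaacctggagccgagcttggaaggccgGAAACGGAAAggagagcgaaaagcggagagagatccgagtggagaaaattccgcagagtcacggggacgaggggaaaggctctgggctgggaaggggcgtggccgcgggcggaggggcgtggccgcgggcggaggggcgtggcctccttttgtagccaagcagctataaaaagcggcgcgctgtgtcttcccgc
TNFSF10 (chr3:172523431-172523680, minus strand): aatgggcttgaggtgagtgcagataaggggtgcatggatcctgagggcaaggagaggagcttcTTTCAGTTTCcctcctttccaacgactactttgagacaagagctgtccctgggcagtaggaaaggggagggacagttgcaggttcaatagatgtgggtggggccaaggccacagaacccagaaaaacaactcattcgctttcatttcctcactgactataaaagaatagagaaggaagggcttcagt

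In these windows LTB held 1 match to the NF-κB consensus, on the strand opposite to the gene and starting at position -86 relative to the start site. Over the same 250 bases of 27305 genes, 9.57% held such a match. TNFSF9 and TNFSF10 each held 1 match to the interferon-stimulated response element, found in 3.07% of all windows. The TNF and LTA windows held no match to either, nor to the AP-1 motif TGANTCA, which stood in 6.60% of all windows and in TNFSF14 and TNFSF15 once each. TNFSF14 held 2 NF-κB matches that overlap each other by all but 1 base, and TNFSF13B held none of the motifs. Start sites were those of the first RefSeq entry of each gene. The windows of TNFSF13B (chr13:108269379-108269628), TNFSF14 (chr19:6670161-6670410) and TNFSF15 (chr9:114792531-114792780) lie within the gene spans of the counting table, before internal start sites. A match describes the letters only. A window without one can still hold sites that depart from these letters, which were not searched for. It also says nothing of sites elsewhere.

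The mRNA of TNF also carries a known instability element, an AU-rich stretch to which decay factors of the ZFP36 family bind. Over the longest annotated 3′ UTR of each gene (GENCODE v44), the 9-base core TTATTTATT occurred 5 times in TNF and once in LTA, and in none of the other 7 members. It was present in 8.82% of 19223 genes, and 0.791% held 3 or more. The richest 30 bases of each are shown as DNA letters, with the core in capitals. In TNF, 4 overlapping or adjoining cores run into each other.
TNF: tgaTTATTTATTATTTATTTATTATTTATT
LTA: tatgaaggcaaaaaaattaaaTTATTTATT

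The libraries held 22829189 to 31895061 counted read pairs, so that 3 counts, used here as the limit that a count of 0 allows, stood at 0.0941 to 0.131 CPM (counts scaled to the library total). All further CPM values use library sizes normalized by the trimmed mean of M values (TMM), with mean ± SD over 3 libraries. Libraries were checked against cell type markers. The summed level of 7 granulocyte maturation genes was 282 to 303 CPM in vehicle-treated promyelocytes and 3960 to 4146 CPM in vehicle-treated granulocytes. The summed level of 6 promyelocyte granule and myeloid genes was 7445 to 8276 CPM in the former and 2303 to 2518 CPM in the latter. With TNF-α the maturation genes summed to 354 to 369 CPM in promyelocytes and 4461 to 4783 CPM in granulocytes, and the promyelocyte genes to 6175 to 7079 and 2261 to 2471 CPM. Their part in the responses to TNF-α was not tested. Among lymphocyte and macrophage genes, MS4A1 and MARCO were at 0 in all 12 libraries, the 5 T cell genes summed to at most 4.06 CPM and the 3 macrophage genes to at most 0.151 CPM. The 3 NK cell genes summed to at most 0.896 CPM. The 4 B cell genes summed to 9.61 to 16.1 CPM and the 3 endothelial genes to 3.26 to 7.03 CPM, and their part in the results was not tested. TNF-α raised all 10 genes of a reference list of NF-κB feedback genes in both cell forms. Of all genes tested, 8.15% rose in promyelocytes and 24.4% in granulocytes. The median log2 fold change of the list was 3.74 in promyelocytes and 4.44 in granulocytes. It was chosen with earlier results of these data known, so these values only describe it. In bulk RNA, a change in the share of cells that make a transcript and a change in the amount per cell cannot be told apart.

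In promyelocytes, TNF-α raised 5 of the 9 ligands (TNF, LTA, LTB, TNFSF9 and TNFSF10), lowered TNFSF14 and left TNFSF13B within the spread of the libraries. Of 16250 genes tested, 14.8% were called at an adjusted p under 0.05 (edgeR quasi-likelihood test with Benjamini-Hochberg adjustment over all genes tested). As shares of all genes tested, 8.15% were called as increased and 6.65% as decreased. The other 2 members, TNFSF8 and TNFSF15, had too few counts to be tested. LTA passed the filter on low counts only through the TNF-α libraries, so a member like it could hardly pass without differing. The median log2 fold change of the 7 members tested was 1.65, against -0.0094 over all genes.

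In granulocytes, TNF-α raised 4 of the 9 ligands (TNF, TNFSF9, TNFSF10 and TNFSF15), lowered TNFSF14, and gave no call for LTB and TNFSF13B. Here 49.2% of 16944 genes were called, 24.4% as increased and 24.8% as decreased. LTA and TNFSF8 were not tested. TNFSF15 passed the filter only through the TNF-α libraries. The median log2 fold change of the 7 members tested was 0.38, against -0.0047 over all genes.

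**Figure D1:**
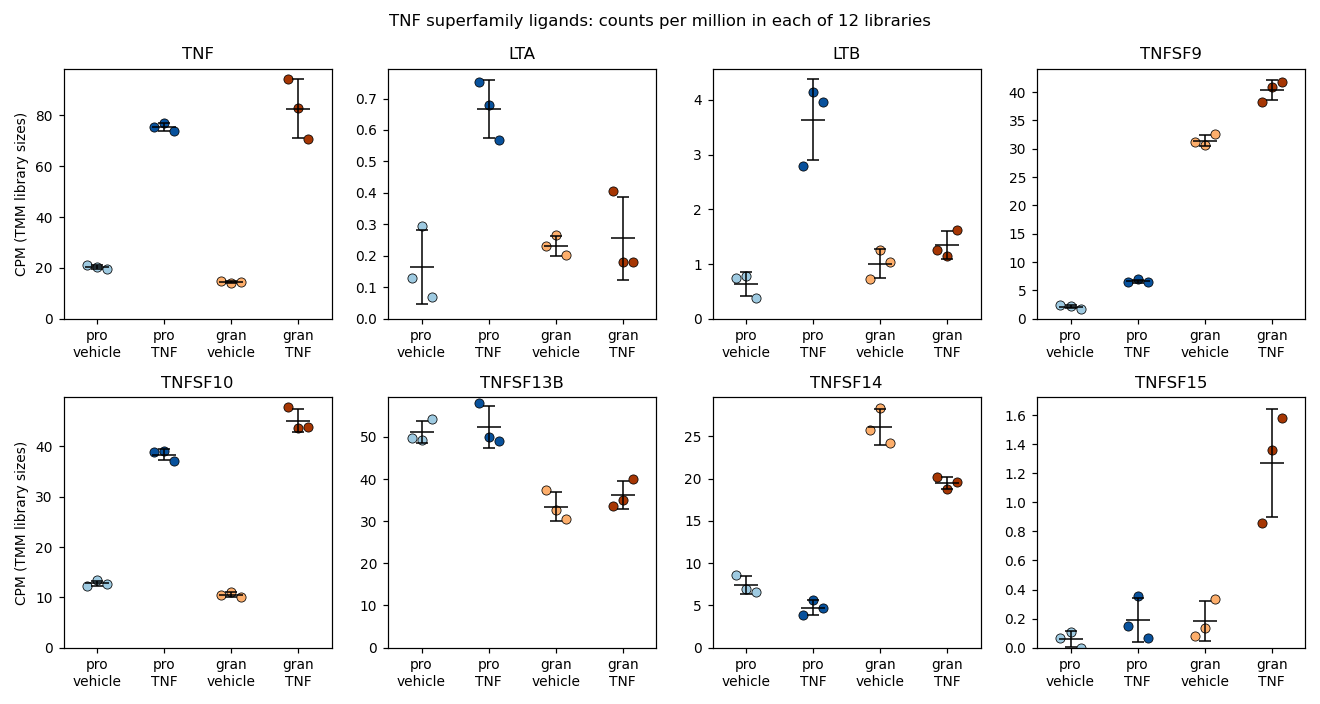
Level of 8 ligands in each of 12 libraries (y axis, CPM on TMM library sizes, from 0; x axis, the 4 groups of promyelocytes, pro, and granulocytes, gran, with vehicle or TNF-α). Points are libraries, dashes and bars are mean and SD of 3. TNF and TNFSF10 rise in both forms, LTA and LTB have their highest values in TNF-α treated promyelocytes, and TNFSF9 and TNFSF14 are highest in granulocytes. TNFSF8, at 0 in every library, is not drawn.

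TNF, the founding ligand of the family and the cytokine added to the medium, rose in both forms. Vehicle-treated promyelocytes held 21.3, 20.4 and 19.4 CPM of TNF and TNF-α treated promyelocytes 75.3, 77.1 and 73.6 CPM. In granulocytes the vehicle libraries held 14.7, 14.1 and 14.6 CPM and the TNF-α libraries 94.2, 82.8 and 70.8 CPM. The groups did not overlap in either form, and the TNF-α treated granulocytes were the most scattered of the 4 groups (SD 11.7 CPM). Relative to vehicle, TNF was 3.76-fold higher in promyelocytes (95% interval 3.42 to 4.13) and 5.67-fold higher in granulocytes (5.10 to 6.31). The response was the larger in granulocytes, by 0.63 on the log2 scale (SE 0.11, adjusted p = 0.000113 by edgeR's interaction test over 12 libraries). After TNF-α the level was 75.4 ± 1.74 CPM in promyelocytes, within the range of the granulocyte libraries (82.6 ± 11.7 CPM). The vehicle level was lower in granulocytes (log2 difference -0.50, adjusted p = 1.04e-05, edgeR), but cell form and experiment cannot be told apart there. The paper did not compare the forms in these data for this reason. In earlier published data of the same line, it found TNF higher after ATRA differentiation.

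The lymphotoxins, encoded on either side of TNF, rose in promyelocytes. LTB encodes the membrane subunit that holds lymphotoxin α at the cell surface for signalling through LTBR. Its counts were 23, 21 and 11 in vehicle-treated promyelocytes and 74, 116 and 126 with TNF-α, or 0.635 ± 0.221 and 3.63 ± 0.740 CPM. The groups did not overlap, and LTB was 5.81-fold higher (95% interval 3.94 to 8.56, adjusted p = 6.41e-07, edgeR). In granulocytes LTB had 19, 38 and 31 counts with vehicle and 28, 32 and 36 with TNF-α, and these ranges overlapped. The log2 fold change there was 0.38 (95% interval -0.23 to 0.99, adjusted p = 0.306). The difference between the responses passed the test, at -2.12 on the log2 scale (SE 0.40, adjusted p = 0.000263).

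LTA, the soluble lymphotoxin α, was scarce throughout. It had 4, 8 and 2 counts in vehicle-treated promyelocytes and 20, 19 and 18 with TNF-α, a rise of 4.08-fold (95% interval 1.996 to 8.35, adjusted p = 0.00725, edgeR). On the log2 scale this was 2.03. With a library left out it ranged from 1.68 to 2.70 (adjusted p of up to 0.041, edgeR), the highest without the second vehicle library. DESeq2 gave no adjusted p for LTA, and an exact permutation test of 3 libraries against 3, two-sided, gave p = 0.1, the smallest such a design allows. In granulocytes LTA had 6, 8 and 6 counts with vehicle and 9, 5 and 4 with TNF-α, at a ratio of 1.07 (95% counting interval 0.535 to 2.14, exact permutation p = 1). Counting intervals cover counting error only. The difference of the responses, -1.89 on the log2 scale (SE 0.76), did not pass the test (adjusted p = 0.0712). When the trends with GC content and gene length were removed, its adjusted p was 0.0474. Without the second vehicle-treated promyelocyte library it was 0.0312, and without the first TNF-α treated granulocyte library 0.0462. Of 12 fits that left out a library, only these 2 passed, and the highest adjusted p was 0.176.

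The genes around LTA, TNF and LTB gave smaller values. Of 9 genes that start within 50 kb of TNF, are not members and were tested in promyelocytes, 2 rose and none fell, where 8.15% of all genes tested rose. These were DDX39B, an RNA helicase gene, with a log2 fold change of 0.26 (adjusted p = 0.0150), and LST1, a leukocyte-specific transcript that starts 10557 bases from TNF, with 0.28 (adjusted p = 0.00897). NCR3, an NK cell receptor gene beyond LST1, was at 0.14 (adjusted p = 0.869). In granulocytes 7 such genes were tested, of which none rose and 1 fell, where 24.4% and 24.8% of all genes did. LTB, whose start lies 6955 bases from that of TNF, was called in promyelocytes and had no call in granulocytes, where TNF rose the more.

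**Figure D2:**
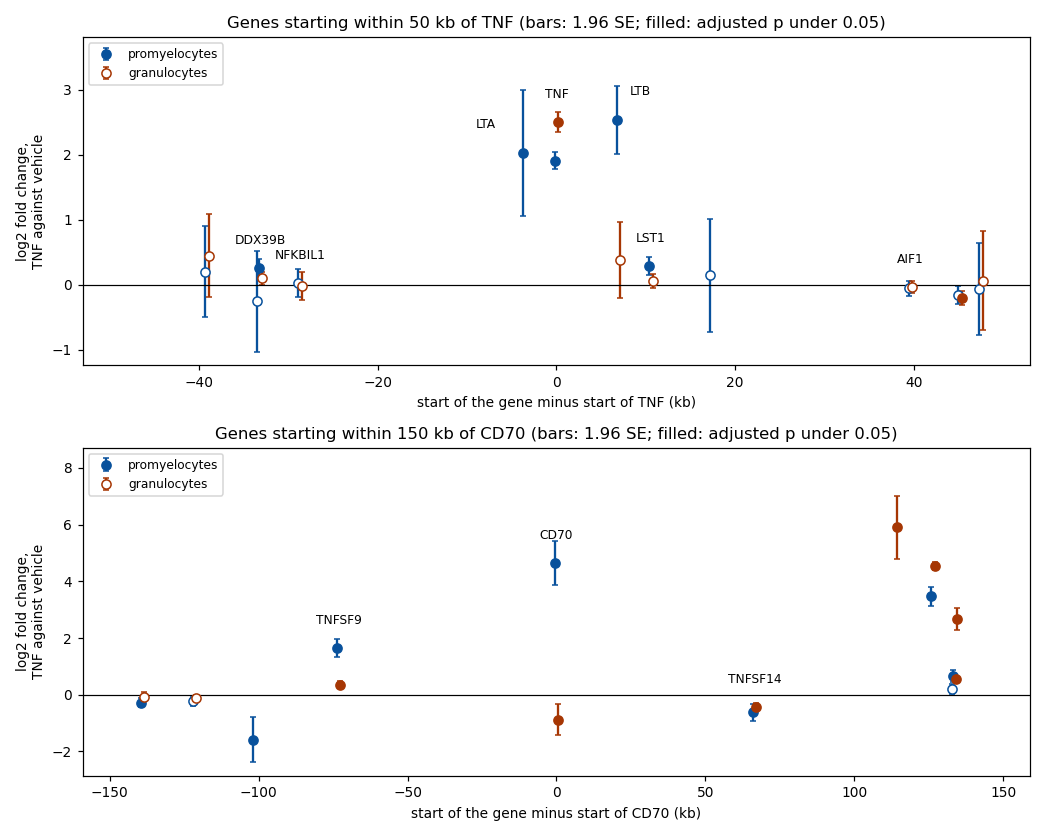
Log2 fold change of genes after TNF-α (y axis) against the distance of their start from that of TNF (upper panel, 50 kb on each side) or CD70 (lower panel, 150 kb on each side). Blue points are promyelocytes and brown points granulocytes, bars are 95% intervals by the normal approximation, and filled points passed an adjusted p of 0.05. LTA, TNF and LTB stand above their neighbours in promyelocytes, at 2.03, 1.91 and 2.54, and the 3 ligand genes of the lower panel move in different directions.

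TNFSF10 encodes TRAIL, a ligand of the death receptors TNFRSF10A and TNFRSF10B. Its level was 12.4, 13.4 and 12.7 CPM in vehicle-treated promyelocytes and 38.8, 39.1 and 37.1 CPM with TNF-α. In granulocytes it was 10.5, 11.02 and 10.1 CPM with vehicle and 47.8, 43.7 and 43.9 CPM with TNF-α. No vehicle library came near a TNF-α library in either form. The rise was 3.05-fold in promyelocytes (95% interval 2.73 to 3.41) and 4.23-fold in granulocytes (3.82 to 4.68), a difference of 0.51 on the log2 scale (SE 0.10, adjusted p = 0.000439, edgeR). Across the 12 libraries the log2 CPM of TNFSF10 and TNF had a Pearson correlation of 0.99, which mostly restates that both rose in the same 2 of 4 groups.

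TNFSF9, the ligand of the costimulatory receptor TNFRSF9 (CD137), rose in both forms from very different levels. Vehicle-treated promyelocytes had 2.39, 2.32 and 1.76 CPM and TNF-α treated promyelocytes 6.47, 6.97 and 6.52 CPM, a rise of 3.14-fold (95% interval 2.49 to 3.96, adjusted p = 2.14e-07, edgeR). Granulocytes already held 31.2, 30.6 and 32.6 CPM with vehicle and 38.3, 40.9 and 41.8 CPM with TNF-α. These groups did not overlap either, and the rise was 1.27-fold (95% interval 1.16 to 1.39, adjusted p = 1.45e-05). The granulocyte response was the smaller, by -1.27 on the log2 scale (SE 0.14, adjusted p = 1.16e-07). With vehicle alone, TNFSF9 was 14.6-fold higher in granulocytes than in promyelocytes (95% interval 12.6 to 16.8), and every granulocyte library exceeded every promyelocyte library, TNF-α treated ones included.

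TNFSF14 encodes LIGHT, which binds TNFRSF14 and the lymphotoxin β receptor, and was the member that fell. In promyelocytes it went from 8.56, 6.99 and 6.56 CPM with vehicle to 3.84, 5.65 and 4.70 CPM with TNF-α, a log2 fold change of -0.62 (SE 0.15, adjusted p = 0.00768, edgeR). With a library left out this value ranged from -0.76 to -0.49 (adjusted p of up to 0.0469, edgeR). In granulocytes it went from 25.7, 28.4 and 24.2 CPM to 20.2, 18.7 and 19.5 CPM, a log2 fold change of -0.44 (SE 0.07, adjusted p = 6.21e-06). The groups did not overlap in either form. The difference between the 2 responses was 0.22 (95% interval -0.11 to 0.55, adjusted p = 0.367). Like TNFSF9 it was higher in vehicle-treated granulocytes, by 3.53-fold (95% interval 3.03 to 4.12).

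TNFSF15 encodes TL1A, a costimulator of T cells through TNFRSF25. It had 2, 4 and 10 counts in vehicle-treated granulocytes and 19, 38 and 35 with TNF-α, without overlap. That was a 6.65-fold rise (95% interval 3.58 to 12.4, adjusted p = 2.39e-06, edgeR), or 2.73 on the log2 scale. With a library left out the log2 value ranged from 2.40 to 3.505, the highest without the third vehicle library. The ratio with its counting interval alone was 6.85 (4.00 to 12.5). In promyelocytes it had 2, 3 and 0 counts with vehicle and 4, 10 and 2 with TNF-α. The ranges overlapped, at a ratio of 3.22 (95% counting interval 1.13 to 11.2, exact permutation p = 0.3). A difference between the responses was not detectable at this depth (log2 difference 1.13, 95% interval -1.29 to 3.56, adjusted p = 0.542).

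TNFSF13B, which encodes the B cell survival factor BAFF, had the highest level per length of the 9 members in vehicle-treated promyelocytes and no call after TNF-α. Its promyelocyte libraries held 49.8, 49.4 and 54.3 CPM with vehicle and 58.0, 50.0 and 49.0 CPM with TNF-α. The granulocyte libraries held 37.3, 32.6 and 30.5 CPM with vehicle and 33.5, 35.0 and 39.9 CPM with TNF-α. Both pairs of groups overlapped. The fold was 1.04 in promyelocytes (95% interval 0.934 to 1.15, adjusted p = 0.684, edgeR) and 1.07 in granulocytes (0.967 to 1.18, adjusted p = 0.270). With GC content and length trends removed, the granulocyte value passed the test (log2 fold change 0.21, adjusted p = 0.00619).

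TNFSF8, the ligand of TNFRSF8 (CD30), had 0 counts in all 12 libraries, which allows up to 0.131 CPM in the shallowest.

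**Figure D3:**
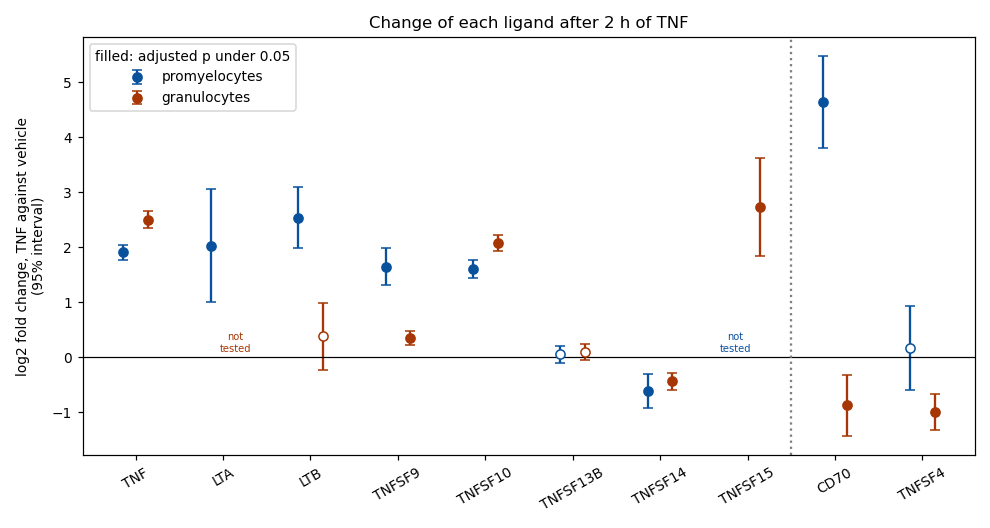
Log2 fold change after TNF-α (y axis, points with 95% intervals) of the 8 members with counts and, right of the dotted line, of CD70 and TNFSF4, in promyelocytes (blue) and granulocytes (brown). Filled points passed an adjusted p of 0.05. On the log2 scale LTB and TNFSF9 respond more in promyelocytes, TNF and TNFSF10 more in granulocytes, and TNFSF13B lies at 0.05 and 0.10.

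The responses were compared between the cell forms in 1 fit of all 12 libraries, and here too cell form and experiment cannot be told apart. Of 8 members tested, 4 differed: on the log2 scale TNF and TNFSF10 responded more in granulocytes, and LTB and TNFSF9 more in promyelocytes. Over 18124 genes, 24.0% differed at an adjusted p under 0.05, 14.1% with the larger value in granulocytes and 9.88% with the smaller. That background depends on the scaling: 2561 genes responded more in granulocytes and 1790 less with TMM, against 2128 and 2266 with DESeq2's size factors, while the same 4 members were called in the same directions. The 4 others gave log2 differences of -1.89 (LTA), 0.08 (TNFSF13B), 0.22 (TNFSF14) and 1.13 (TNFSF15), none past the threshold. LTA passed the count filter of this fit only through TNF-α treated promyelocytes, and TNFSF15 only through TNF-α treated granulocytes. The same fit gave the vehicle contrast.

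Vehicle levels differed between the forms for 5 of 8 members tested, where 72.0% of 18124 genes did, and cell form and experiment cannot be told apart. TNFSF9 and TNFSF14 were higher in granulocytes, at log2 differences of 3.87 and 1.82. TNF, TNFSF10 and TNFSF13B were lower, at -0.50, -0.28 and -0.61. The vehicle libraries of the forms did not overlap for these 5, which are named because they were called. The share of all genes without overlap was not computed. LTB had a log2 difference of 0.68 (adjusted p = 0.0567), which passed the test without the first or the second promyelocyte library (adjusted p = 0.0475 and 0.0440), without the first granulocyte library (0.0224) and with DESeq2's size factors (0.0450). LTA had a log2 difference of 0.51 (adjusted p = 0.439) and TNFSF15 one of 1.61 (adjusted p = 0.0908).

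Divided by exon length, the levels of different members could be set in order. In vehicle-treated promyelocytes TNFSF13B came first at 16.7 ± 0.889 CPM per kb, then TNF at 12.2 ± 0.557, TNFSF10 at 3.68 ± 0.148, TNFSF14 at 1.54 ± 0.220 and TNFSF9 at 1.29 ± 0.206, of which only the last pair overlapped. LTB stood at 0.414 ± 0.144 CPM per kb, LTA at 0.0948 ± 0.0670 and TNFSF15 at 0.00743 ± 0.00704. With TNF-α, TNF led at 44.96 ± 1.04 CPM per kb, followed by TNFSF13B at 17.1 ± 1.61 and TNFSF10 at 11.04 ± 0.304. LTB moved above TNFSF14 there, at 2.37 ± 0.482 against 0.989 ± 0.189 CPM per kb.

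In vehicle-treated granulocytes the first place belonged to TNFSF9 at 18.9 ± 0.601 CPM per kb, before TNFSF13B at 10.9 ± 1.15, TNF at 8.61 ± 0.189, TNFSF14 at 5.46 ± 0.441 and TNFSF10 at 3.04 ± 0.130, with no overlap between neighbours. With TNF-α, TNF was first at 49.3 ± 6.997 CPM per kb and TNFSF9 second at 24.2 ± 1.08. TNFSF10 at 12.99 ± 0.677 and TNFSF13B at 11.8 ± 1.09 CPM per kb overlapped, as did TNFSF15 at 0.161 ± 0.0470 and LTA at 0.147 ± 0.0754. TNF was thus the leading ligand transcript per length in both forms after TNF-α, and in neither with vehicle.

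**Figure D4:**
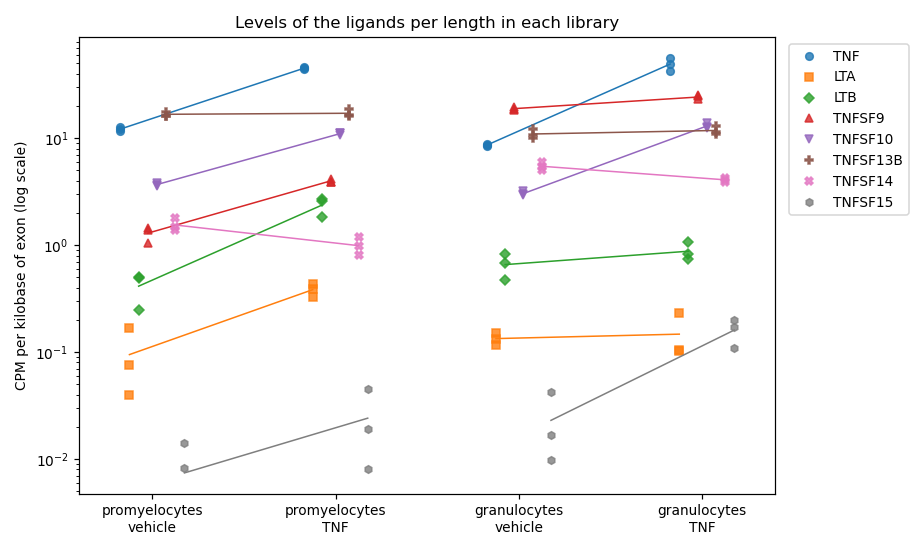
Level per kilobase of exon (y axis, CPM per kb, log scale) of 8 members in each library of the 4 groups. Symbols are libraries, lines join the means of vehicle and TNF-α treated cells of one form, and libraries at 0 cannot be drawn on this scale. TNF crosses above TNFSF13B in promyelocytes (12.2 to 44.96 CPM per kb) and above TNFSF9 in granulocytes (8.61 to 49.3 CPM per kb).

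The 9 further ligands of the family give the setting of these changes. Only 3 of them could be tested. CD70, the ligand of CD27 and a neighbour of TNFSF9 and TNFSF14, moved in opposite directions. It had 2, 3 and 2 counts in vehicle-treated promyelocytes and 52, 60 and 68 with TNF-α, a ratio of 25.9 (95% counting interval 12.3 to 65.2, adjusted p = 3.07e-08 by edgeR). It passed the filter there only through the TNF-α libraries. In granulocytes it had 46, 53 and 59 counts with vehicle and 28, 31 and 14 with TNF-α, a log2 fold change of -0.88 (SE 0.27, adjusted p = 0.00774). Without the third TNF-α treated granulocyte library this fall was -0.64 on the log2 scale with an adjusted p of 0.0585. The difference between the responses was -5.48 (SE 0.49, adjusted p = 2.12e-09). The 3 ligand genes of this cluster therefore moved up (TNFSF9), up or down by cell form (CD70) and down (TNFSF14).

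TNFSF4, the ligand of OX40, fell in granulocytes, from 5.26 ± 0.502 to 2.64 ± 0.198 CPM (log2 fold change -0.9997, adjusted p = 1.95e-06, edgeR), and gave 0.16 in promyelocytes (adjusted p = 0.816). TNFSF13, which encodes APRIL, was not called in either form, but 55.5% of its exon bases are shared with another gene of its strand, and such read pairs were not counted. TNFSF12 shares 29.4% and was at 0 throughout.

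Of 16 receptor genes of the members, 10 could be tested in promyelocytes, where 2 rose and 4 fell, and 11 in granulocytes, where 3 rose and 4 fell. Over all genes tested, 14.8% were called in promyelocytes and 49.2% in granulocytes. The median log2 fold change of those tested was -0.23 and 0.01. Both TNF receptors, TNFRSF1A and TNFRSF1B, fell in both forms. TNFRSF1A went from 129.5 ± 5.81 to 91.1 ± 5.48 CPM in promyelocytes (log2 fold change -0.48, adjusted p = 6.61e-06, edgeR) and from 206.9 ± 5.50 to 157.5 ± 10.7 CPM in granulocytes (-0.41, adjusted p = 1.26e-08). TNFRSF1B gave log2 fold changes of -0.46 and -0.34 (adjusted p = 0.000298 and 1.60e-06). The ligand therefore rose at the RNA level while its receptors fell.

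TNFRSF9, the receptor of TNFSF9, had the largest rise of the receptor genes tested in both forms. It went from 0.583 ± 0.175 to 14.6 ± 1.21 CPM in promyelocytes (log2 fold change 4.67, adjusted p = 1.07e-13, edgeR) and from 12.1 ± 1.00 to 161.2 ± 4.75 CPM in granulocytes (3.72, adjusted p = 3.15e-34). Like its ligand it was higher in vehicle-treated granulocytes, by 4.38 on the log2 scale. TNFRSF10B, a receptor of TNFSF10, rose in granulocytes (log2 fold change 0.81, adjusted p = 9.10e-11), and its rise in promyelocytes was 0.21 (adjusted p = 0.0322). That promyelocyte call was lost with the replicate number as a block (adjusted p = 0.0983), with all 12 libraries in 1 fit (adjusted p = 0.0629), and in every fit that dropped a library (adjusted p of up to 0.133) except the one without the third TNF-α library. TNFRSF10A, the other death receptor of TNFSF10, fell in promyelocytes (log2 fold change -0.26, adjusted p = 0.00964) and gave -0.14 in granulocytes (adjusted p = 0.110). The promyelocyte call was lost without the second or the third vehicle library (adjusted p = 0.0506 and 0.0511), and the granulocyte value passed without the first vehicle library (adjusted p = 0.0468). The decoy receptor TNFRSF10C fell in granulocytes (-1.82, adjusted p = 1.36e-08) and gave -0.66 in promyelocytes (adjusted p = 0.0759, or 0.0366 with all 12 libraries in 1 fit), and the decoy receptor TNFRSF10D rose in granulocytes (0.41, adjusted p = 4.36e-06) and gave -0.19 in promyelocytes (adjusted p = 0.241). TNFRSF14, a receptor of TNFSF14, was not called in either form (log2 fold change 0.06 and 0.10), and its vehicle level was 1.65 ± 0.240 CPM in promyelocytes and 31.8 ± 1.09 CPM in granulocytes.

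**Figure D5:**
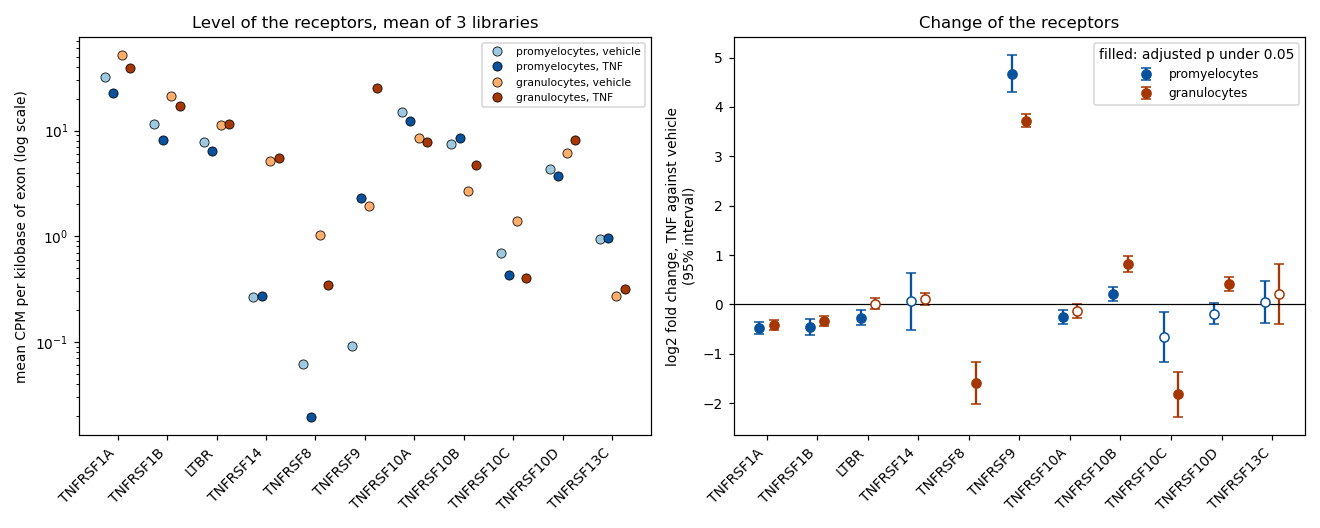
Receptor genes of the members with enough counts to test in at least 1 form. The left panel gives the mean level of 3 libraries (CPM per kilobase of exon, log scale) in the 4 groups, and the right panel the log2 fold change after TNF-α with its 95% interval, filled where the adjusted p was under 0.05. TNFRSF9 rises by 4.67 and 3.72 on the log2 scale, and TNFRSF1A and TNFRSF1B fall in both forms.

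Of the genes that release the ligands from the membrane, ADAM17 and RHBDF2 responded more in granulocytes. Of 7 listed, 6 were tested, with 2 increased in promyelocytes, and 3 increased and 1 decreased in granulocytes (14.8% and 49.2% of all genes tested were called). Their difference between the forms passed the test for 2 of the 6, where 24.0% of all genes did. ADAM17, the protease that sheds TNF, rose from 52.1 ± 0.325 to 64.9 ± 3.36 CPM in promyelocytes (log2 fold change 0.34, adjusted p = 0.000498, edgeR) and from 92.9 ± 2.06 to 245 ± 8.44 CPM in granulocytes (1.39, adjusted p = 8.97e-24). The difference was 1.09 (adjusted p = 2.22e-11). RHBDF2, which encodes the partner iRhom2 that brings ADAM17 to the surface, rose in granulocytes by 0.98 (adjusted p = 7.64e-13) and gave -0.13 in promyelocytes (adjusted p = 0.564), a difference of 1.15 (adjusted p = 1.72e-06).

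A further list held 10 factors of decay or stability of mRNAs with AU-rich or stem-loop elements, such as that of TNF. Of these, 2 rose and 1 fell in promyelocytes, and 7 rose and 2 fell in granulocytes. Of all genes tested, 14.8% and 49.2% were called. Among the 7, ZFP36L1 passed the filter on low counts only through the TNF-α libraries. It had 3, 10 and 8 counts with vehicle and 13, 15 and 14 with TNF-α. ZC3H12A, an endonuclease that cuts stem-loops in cytokine mRNAs, rose by 1.97 in promyelocytes and 2.68 in granulocytes on the log2 scale (adjusted p = 1.34e-12 and 5.45e-29, edgeR). ZFP36, which binds the core printed for TNF and LTA and promotes decay, rose by 0.76 and 0.50 (adjusted p = 2.45e-06 and 1.44e-07). Its relative ZFP36L2 fell in both, by 1.20 and 0.47 on the log2 scale (adjusted p = 1.55e-11 and 2.27e-10).

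The genes most like the members over the 12 libraries, among 11721 whose log2 CPM averaged 1 or more and with the members themselves left out, are given as a description, since the 12 libraries form 4 groups. Among these, TNF was closest to MMP9, NFKBIA and MIR3142HG (Pearson r of log2 CPM 0.99 for each). NFKBIA, the NF-κB inhibitor, rose by 3.91 and 5.51 on the log2 scale in promyelocytes and granulocytes. TNFSF10 was closest to NFKBIA, RELB and MMP9 (r 1.00, 1.00 and 0.99), 2 of which it shared with TNF.

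TNFSF9 was closest to KMO, IRF2 and COL9A2 (r 0.99 for each). TNFSF13B was closest to CHAC2, CENPK and TMEM237 (r 0.97 for each). The scarcer members had looser matches, LTB with REPIN1, FAM118B and C3AR1 (r 0.88 to 0.91), LTA with GCNT2, ZFP91 and SNX20 (r 0.81 to 0.87), and TNFSF15 with ADORA2A, TSPY26P and a gene without a symbol (r 0.93 to 0.95). Between members, LTA and LTB had r of 0.87, TNFSF9 and TNFSF14 0.81, and TNFSF13B and TNFSF14 -0.94.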

How the data were processed

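The 9 members and the gene lists were chosen with earlier results of these data known. The authors removed ribosomal RNA, aligned paired reads to hg38 with STAR 2.5.3a and counted read pairs per gene on the reverse strand with featureCounts 1.5.2, and they deposited raw counts for 12 libraries, without normalization. The versions are those of the submitters' processing notes. Pairs on more than one gene of a strand were left out, and 57577 of 58288 identifiers were paired with a symbol from the reference annotation. Per the paper's methods each library came from its own flask.

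The libraries of each cell form had a fit of their own in edgeR 4.0.16 under R 4.3.3 (TMM, filterByExpr with a minimum count of 10 and total of 15, quasi-likelihood test, Benjamini-Hochberg over all genes tested, threshold 0.05, prior count 0.125). Interaction and vehicle contrasts came from 1 fit of all 12 libraries. Each gene's SE was derived from its log2 fold change and F statistic. Counting intervals are exact at 95%, and exact permutation tests were two-sided with n = 3 per group. Between replicates the chi-square per degree of freedom was 3.59 to 14.1, where sampling noise alone gives about 1. Each library therefore entered the fits on its own. Only the counting intervals used counts summed over the 3 libraries of a group. The code was tested on simulated counts.

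Named genes were the 9 members, genes of the fixed lists, NCR3 and LST1 as neighbours, and the 3 genes most correlated with each member, which for TNFSF14 are not reported here. The distances of 50 and 150 kb around TNF and CD70 and the sequence motifs were chosen after values had been seen. Alternatives were DESeq2's size factors, no expression filter, DESeq2 1.42.0, a threshold of 0.01, the replicate number as a block, removal of GC content and length trends, all 12 libraries in 1 fit, levels without division by length, and leaving out each library. Sequences were read with Python 3.11.15, and plots drawn with matplotlib 3.10.9.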

Additional observations from a re-analysis of the deposited data

Results flagged for a closer look

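Each value here belongs to a member or to another gene of the lists described by name, and was picked out because the response to TNF-α differed between granulocytes and promyelocytes by edgeR's interaction test (adjusted p under 0.05 over 18124 genes, of which 24.0% did). Values are the granulocyte log2 fold change minus that of promyelocytes. Among the members they were 0.63 for TNF, 0.51 for TNFSF10, -2.12 for LTB and -1.27 for TNFSF9. Among other ligands and receptors they were -5.48 for CD70, -1.12 for TNFSF4, -0.91 for TNFRSF9, 0.64 for TNFRSF10B, -1.12 for TNFRSF10C and 0.64 for TNFRSF10D. Other genes of the lists that passed are not given here. The TNFSF4 difference lost its call without the third vehicle-treated promyelocyte library (adjusted p = 0.0669) and without the second TNF-α treated one (adjusted p = 0.0866). Among genes of shedding, decay and NF-κB feedback they were 1.09 for ADAM17, 1.15 for RHBDF2, 0.76 for ZFP36L2, 0.74 for ZC3H12A and 1.63 for NFKBIA. The cell forms were handled in separate experiments, so cell form and experiment cannot be told apart in these differences.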

How the results depend on the processing

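The 6 members called in promyelocytes were 5 with DESeq2, which gave LTA no adjusted p, and 6 in every other fit. The 5 called in granulocytes became 6 with GC content and length trends removed (TNFSF13B). The 4 whose responses differed became 6 in that fit (LTA and TNFSF13B added) and 5 in 2 of the fits that left out a library, and the 5 whose vehicle levels differed became 6 with DESeq2's size factors and in 3 such fits. Apart from LTA with DESeq2, no member's call was lost, and none was reversed. TNFSF13B, which had no call in promyelocytes, ranged from -0.06 to 0.06 with all libraries kept and from -0.03 to 0.11 with a library left out. In vehicle-treated granulocytes TNF stood at place 3 per kilobase and at place 4 by CPM. Without division by length TNFSF13B stood above TNFSF9 and TNFSF14 above TNF there, TNFSF14 above LTB in TNF-α treated promyelocytes, and TNFSF10 above TNFSF9 in TNF-α treated granulocytes. Removing the GC content and length trends moved the median of all genes in the vehicle contrast to -0.11, from 0.00842. Over all genes, promyelocyte calls fell from 1324 increased and 1081 decreased to 945 and 653 without the second vehicle library. The same split of the interaction was 1991 higher and 2518 lower without the expression filter, and 1943 and 2269 with DESeq2. Same-numbered libraries did not deviate together (correlations from -0.146 to -0.0129), which gives no sign of pairing by number. With 3 libraries per group this check cannot settle whether flasks were handled in matched sets. With the replicate block the counts of members stayed at 6, 5, 4 and 5. Depth limits LTA, TNFSF15 and TNFSF8, and 3 libraries per group limit the rest.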
